A study of Homo sapiens with 12 samples.

Results

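PANC-1 is an established human cell line of pancreatic ductal adenocarcinoma. Its response to low oxygen was read here from PANC-1 cells cultured alone, as the contrast of 3 arrays of hypoxic cells (HPC) with 3 arrays of normoxic cells (NPC), which are 6 of the 12 arrays of the series. The other 6 arrays hold PANC-1 cells that shared a transwell with tumor-associated macrophages (TAMs, made from the THP-1 monocyte line), under hypoxia (HPM) or normoxia (NPM), and they are used here only to set the same contrast beside that of the cells alone. All 4 groups had the same unmodified cell line and the same serum-containing medium, and differed by oxygen and by the presence of TAMs. Co-culture lasted 4 days per the labels. The oxygen level of the hypoxia groups and the time in hypoxia of the cells alone are not given in the sources used here. Each array was hybridised in 1 colour (Cy3) on a NimbleGen human expression array, and 34487 features were measured, of which 14675 could be tied to 13422 named genes. Values are log2 of the normalized intensity, and a difference of 1 on this scale is a fold change of 2.

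Cells that run short of oxygen stop hydroxylating the alpha subunits of the hypoxia-inducible factors (HIFs), which escape breakdown through VHL, pair with ARNT and bind hypoxia response elements, whose core reads ACGTG or GCGTG. The genes they raise take up and ferment glucose, export acid, call in vessels, modify collagen and trim mitochondria. A separate arm, the integrated stress response, raises the transcription factor ATF4 when amino acids run short, when proteins misfold or when oxygen is very low. ATF4 and its partners bind C/EBP-ATF response elements of the form TGATGNAA and raise genes of amino acid supply and of stress signalling. Pancreatic ductal tumors are poorly perfused, and both programs are studied in them.

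The 6 arrays had matched distributions, with lower quartiles between 7.65 and 7.74. Over all features, arrays of the same group correlated at 0.942 to 0.972 and arrays of different groups at 0.936 to 0.964. On principal component analysis the first component held 36.4% of the variance and the second 27.6%, and the 2 arrays numbered 3 lay with HPC array 2 on the positive side of the first. Genes of a ductal tumor cell line were bright in both groups, with keratin 8 (KRT8) at 14.80 in HPC and 14.87 in NPC and vimentin (VIM) at 15.25 and 15.21. Of 15 measured macrophage markers, 8 lay on all 6 arrays within the lowest 25% of features. The median level of the 15 was 7.03 to 7.16 over the HPC arrays and 6.92 to 7.22 over the NPC arrays, so the median of this list was low in both groups of cells alone. Macrophage genes outside the list were not surveyed as a set. CCL22, which the paper uses as a marker of M2 macrophages, was at 10.88 in HPC and 11.48 in NPC. With TAMs it was lower, at 9.36 in HPM and 5.58 in NPM, and the reason was not tested.

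The features that passed the test included stress-response and hypoxia genes that rose and a few interferon and leukocyte genes that fell. At an adjusted p of 0.05 in limma, 48 features rose, which is 0.139% of all features, and 6 fell, or 0.0174%. The 54 features changed over 2-fold, and on none of them did the 3 HPC arrays overlap the 3 NPC arrays. With 3 arrays per group this lack of overlap largely follows from passing, so it is no further evidence. The smallest adjusted p was 0.0254. The named ones cover 25 genes that rose and 4 that fell (OASL, IFIT3, LCP1 and CCL4), and 22 features carry no gene name here. Below that threshold the shift was broad, with an unadjusted p under 0.05 for 3077 features with a higher level in HPC (8.92%) and 3068 with a lower one (8.9%). The count of 54 rests on all 6 arrays, since no feature passed when any single array was left out. The 54 kept an unadjusted p under 0.05 each time, but they were chosen on these same arrays, so this is no independent check. The count was also 0 with the replicate number as a block, and 14 with the methods' t-test after Benjamini-Hochberg adjustment, of which 5 were higher and 9 lower in HPC. It was larger with other settings, at 893 (576 higher and 317 lower) without the dimmest 25% of features and 1639 (877 and 762) with a trend of the variance over intensity and robust estimation, which called all 54 again. The excess of features that rose over those that fell thus depended on the setting. An exact permutation test of 3 against 3 arrays could not give a p below 0.1, so the model across all features was used throughout.

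**Figure D1:**
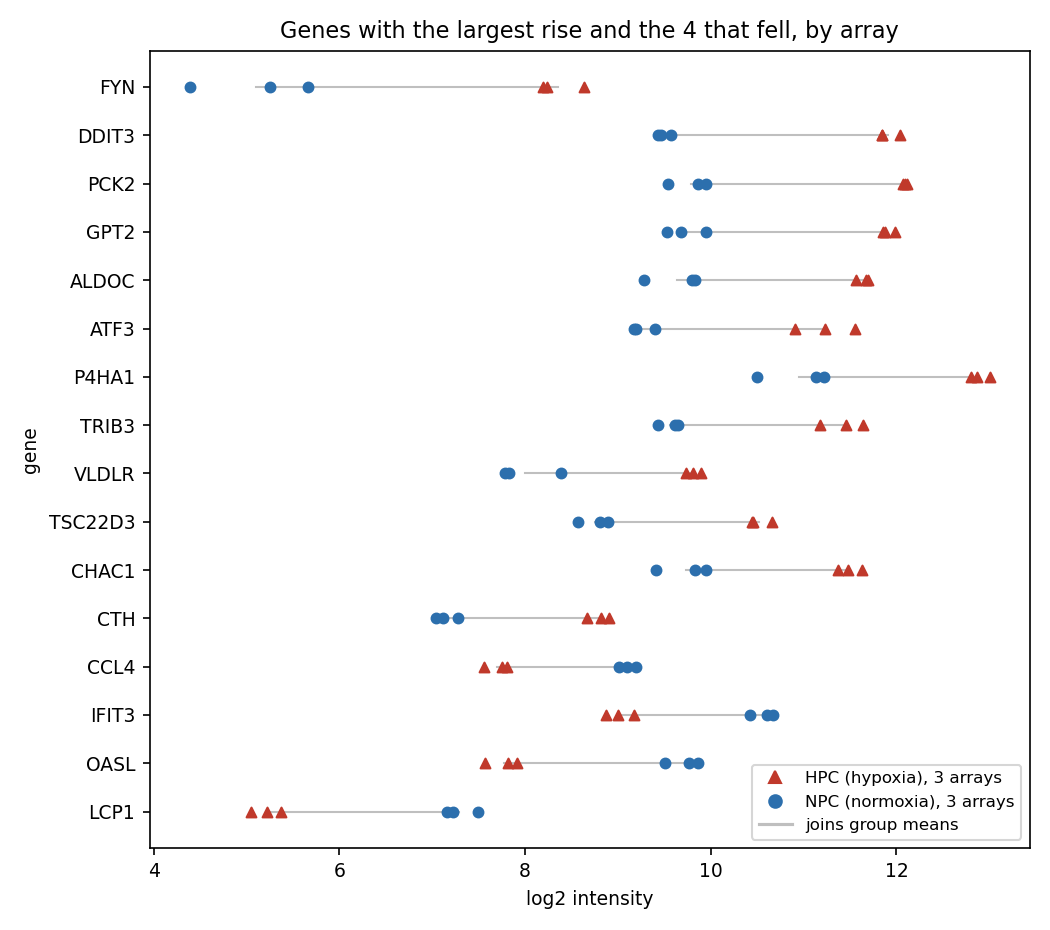
Log2 intensity (x axis) of the 12 genes with the largest rise and the 4 that fell (y axis), with 1 symbol per array, triangles for the 3 HPC and circles for the 3 NPC arrays, and a grey line between the group means. The genes were taken from features that passed without overlap, so the 2 groups are apart by that choice. FYN has the widest gap, with a log2 fold change of 3.25.

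Genes of the integrated stress response were prominent among those that rose. Of 20 measured ATF4 targets and amino acid genes, 7 rose at the adjusted threshold and 18 had a higher level at an unadjusted p under 0.05, against 8.92% of all features. The list's median log2 fold change was 1.35, where that of all features was -0.0005. The median level of its members was 12.12 to 12.29 on the HPC arrays and 10.91 to 11.13 on the NPC arrays. DDIT3, which encodes the stress transcription factor CHOP, had the smallest p of all features. Its levels were 11.84, 12.04 and 11.84 on HPC arrays 1 to 3 and 9.46, 9.57 and 9.43 on NPC arrays 1 to 3. The groups were far apart relative to their spread, and DDIT3 rose 5.35-fold (log2 2.42, SE 0.15, adjusted p = 0.0254). PCK2, the mitochondrial phosphoenolpyruvate carboxykinase, stood at 12.09, 12.07 and 12.12 in HPC and at 9.86, 9.95 and 9.54 in NPC, a rise of 4.96-fold (adjusted p = 0.0337). A second feature of PCK2 rose by a log2 of 2.21. TRIB3, a pseudokinase that restrains ATF4 and AKT signalling, had 11.63, 11.46 and 11.17 in HPC against 9.44, 9.65 and 9.61 in NPC and rose 3.62-fold (adjusted p = 0.0337). None of these genes had an HPC array within the NPC range, which held for all 54 features that passed.

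ATF3, a stress-induced repressor of the same family, was measured at 11.55, 10.90 and 11.23 in HPC and 9.17, 9.20 and 9.40 in NPC, and rose by a log2 of 1.97 (SE 0.21, adjusted p = 0.0423). CHAC1, which degrades glutathione, was at 11.48, 11.63 and 11.37 against 9.83, 9.95 and 9.41 and rose by 1.76 (SE 0.20, adjusted p = 0.0423). NUPR1, a small stress-induced nuclear protein, stood at 13.04, 13.45 and 13.40 against 11.83, 11.80 and 11.76 and rose 2.82-fold (adjusted p = 0.0423). The last of the 7, DDIT4 (REDD1, an inhibitor of mTORC1), is a target of HIF as well and is listed under both programs. Amino acid genes that missed the threshold were SLC7A11, the cystine transporter (1.35, adjusted p = 0.0528), PHGDH, the first enzyme of serine synthesis (1.35), and asparagine synthetase, ASNS (1.25). ATF4 itself was higher by 0.65 (unadjusted p = 0.0038), and the members nearest 0 were ALDH18A1 (0.13) and SHMT2 (0.31). Outside the list, 2 further enzymes of amino acid metabolism rose. GPT2, the mitochondrial alanine aminotransferase, was at 11.85, 11.98 and 11.87 in HPC and 9.53, 9.95 and 9.68 in NPC, a rise of 4.55-fold (adjusted p = 0.0337). CTH, which makes cysteine from cystathionine, was at 8.67, 8.90 and 8.81 against 7.28, 7.12 and 7.04, a rise of 3.14-fold (adjusted p = 0.0337). A second feature of CTH differed by 1.33 and did not pass (adjusted p = 0.0634).

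The promoters of ATF3 and CHAC1 are shown because they are genes that rose and whose window holds TGATGNAA. Each is the 250 bases before the RefSeq transcription start on GRCh38.p14, read along the gene's strand, with the match in capitals. The ATF3 window is chr1:212565157-212565406 on the plus strand, with its match 191 to 184 bases before the start. The CHAC1 window is chr15:40953221-40953470 on the plus strand, with its match on the opposite strand, 209 to 202 bases before the start.
ATF3: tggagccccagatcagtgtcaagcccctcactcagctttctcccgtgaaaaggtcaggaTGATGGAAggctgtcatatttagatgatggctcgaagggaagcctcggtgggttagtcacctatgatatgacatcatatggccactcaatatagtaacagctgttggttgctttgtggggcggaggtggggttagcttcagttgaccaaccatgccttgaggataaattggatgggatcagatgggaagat
CHAC1: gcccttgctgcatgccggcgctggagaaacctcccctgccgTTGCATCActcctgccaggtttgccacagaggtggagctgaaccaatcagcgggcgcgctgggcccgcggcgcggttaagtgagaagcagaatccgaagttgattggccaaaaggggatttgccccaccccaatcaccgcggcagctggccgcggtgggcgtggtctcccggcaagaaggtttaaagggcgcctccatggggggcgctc
Over the full window of 300 bases (250 before and 50 after the start, both strands), TGATGNAA was found in 4 of the 17 ATF4-list genes with a promoter entry (23.5%, exact 95% interval 6.81 to 49.9%). It was in 2 of 20 genes that rose (10.0%), in 1.95% of the promoters of all genes named on the array and in 3.67% of all RefSeq promoters. A match describes the letters of the window and is not a measurement of binding.

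Genes known as HIF targets formed the other large group. Of 26 measured genes of glucose uptake and glycolysis, 15 were higher at an unadjusted p under 0.05 and 0 were lower, against 8.92% and 8.9% of all features. Of the 26, 1 passed the adjusted threshold. The median log2 fold change was 0.72. The gene that passed was ALDOC, an aldolase isoform, which was at 11.57, 11.67 and 11.69 in HPC and 9.29, 9.83 and 9.79 in NPC and rose 4.02-fold (adjusted p = 0.0337). The glucose transporter SLC2A1 (GLUT1) was at 13.29, 13.44 and 12.86 against 11.59, 11.55 and 11.78 (log2 1.56, adjusted p = 0.0506). Hexokinase 2 (HK2) was at 12.58, 12.69 and 12.16 against 10.87, 11.28 and 10.88 (1.47, adjusted p = 0.0642). For both genes every HPC array was above every NPC array, although neither passed. PFKFB4, which makes the activator of phosphofructokinase, differed by 1.48 (adjusted p = 0.0572), and glucose-6-phosphate isomerase (GPI) by 1.16 (adjusted p = 0.0576). Lactate dehydrogenase A (LDHA) and phosphoglycerate kinase (PGK1) differed by 0.69 each, and the pyruvate dehydrogenase kinase PDK1, which keeps pyruvate from the mitochondria, by 1.05. Several abundant enzymes of the same pathway lay near 0, among them ALDOA (-0.06), PGAM1 (-0.08), ENO1 (0.11), PKM (0.18) and GAPDH (0.19). Isoforms of a step had unlike values. ALDOC was at 2.01 where ALDOA was at -0.06, ENO2 at 1.09 where ENO1 was at 0.11, and HK2 at 1.47 where HK1 was at 0.39, although these differences between isoforms were not tested.

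**Figure D2:**
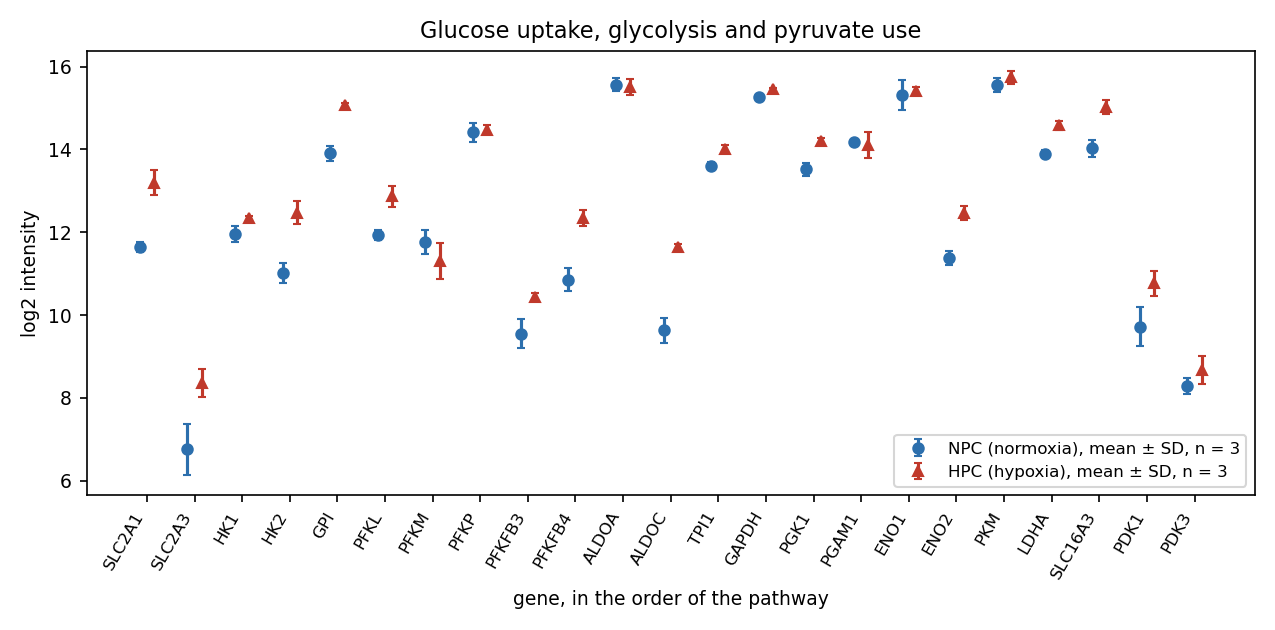
Log2 intensity (y axis, mean ± SD of 3 arrays) of genes of glucose uptake, glycolysis and pyruvate use in the order of the pathway (x axis), circles for NPC and triangles for HPC. The gap is wide at SLC2A1, HK2, GPI, PFKFB4, ALDOC and ENO2 and closed at ALDOA, PGAM1 and PKM, and only ALDOC passed the adjusted threshold.

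Among 28 other hypoxia-induced genes, 22 were higher at an unadjusted p under 0.05 and 1 was lower (EFNA1, -0.41), against 8.92% and 8.9% of all features. The median log2 fold change of the list was 0.99. The members' median level was 10.84 to 11.21 on the HPC arrays and 9.77 to 9.98 on the NPC arrays. AK4, a mitochondrial adenylate kinase, stood at 11.06, 11.23 and 11.28 in HPC and 9.51, 9.80 and 9.33 in NPC and rose 3.12-fold (log2 1.64, SE 0.18, adjusted p = 0.0423). DDIT4 was at 13.12, 13.15 and 13.05 against 11.53, 11.82 and 11.41 and rose 2.87-fold (1.52, SE 0.17, adjusted p = 0.0423). VLDLR, a receptor of the LDL receptor family, rose on 1 feature (9.90, 9.81 and 9.73 against 7.83, 8.39 and 7.78, log2 1.81, adjusted p = 0.0423), while another feature, used in the list for its higher mean over the 12 arrays, differed by 2.16 without passing (adjusted p = 0.0963). For AK4, DDIT4 and the first VLDLR feature the lowest HPC array lay more than 1 log2 unit above the highest NPC array. BNIP3, which directs mitochondria to autophagy, differed by 1.01 (adjusted p = 0.0594), the ubiquitin ligase subunit WSB1 by 1.47 (adjusted p = 0.0572), the membrane protein TMEM45A by 1.65 (adjusted p = 0.0506), the lipid droplet protein PLIN2 by 1.12 (adjusted p = 0.0655) and the growth arrest gene NDRG1 by 1.72 (unadjusted p = 0.013).

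Collagen-modifying enzymes were another set with members that rose, P4HA1 and P4HA2, the catalytic subunits of prolyl 4-hydroxylase. Of 13 measured, 8 were higher at an unadjusted p under 0.05 and 0 were lower, against 8.92% and 8.9% of all features, with a median of 0.69. P4HA1 had features at 12.86, 13.01 and 12.80 against 11.14, 11.22 and 10.50 (log2 1.94, SE 0.23, adjusted p = 0.0472) and at 13.87, 13.41 and 13.37 against 11.71, 11.98 and 11.59 (1.79, adjusted p = 0.0423). P4HA2 was at 12.37, 12.58 and 12.37 in HPC and 10.99, 10.94 and 11.03 in NPC and rose 2.74-fold (adjusted p = 0.0423). The cross-linking enzyme lysyl oxidase (LOX) differed by 1.40 (adjusted p = 0.0528), LOXL4 by 1.73 (adjusted p = 0.0831), and the lysyl hydroxylases PLOD1 and PLOD2 by 1.01 and 0.83. LOXL2 (0.19), P3H2 (-0.28) and P4HA3 (-0.15) were near 0.

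None of the 7 pH genes and none of the 14 angiogenic and vasoactive factors measured passed the adjusted threshold. The counts at an unadjusted p under 0.05 were 2 of 7 and 6 of 14 higher, and 0 lower in both, against 8.92% and 8.9% of all features. CA9, the cell-surface carbonic anhydrase used as a marker of hypoxia, was at 9.43, 10.01 and 10.57 in HPC and 7.14, 7.67 and 8.47 in NPC. The groups did not overlap, but both spread widely, and the log2 difference of 2.24 had an SE of 0.41 (adjusted p = 0.0875). VEGFA was at 13.13, 12.84 and 12.66 against 11.23, 11.63 and 10.35, a difference of 1.81 with an SE of 0.34 (adjusted p = 0.0901). The lactate exporter SLC16A3 (MCT4) differed by 1.00 and the importer SLC16A1 (MCT1) by 0.04. Of the secreted factors, IGFBP3 differed by 1.29 and stanniocalcin 2 (STC2) by 0.68 (unadjusted p between 0.001 and 0.0056), whereas VEGFC was at -0.22 and VEGFB at 0.28 (unadjusted p = 0.37 and 0.31). EPO, at 1.34, was dim in both groups, within the lowest 26.2% of features on every array.

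The oxygen-sensing machinery itself held no gene that passed among 11 measured, and its median was -0.02. The exception in size was HIF1A, which was at 8.83, 9.33 and 9.42 in HPC and 10.41, 10.70 and 10.42 in NPC. Its HPC arrays all lay below its NPC arrays, and the difference of -1.32 (SE 0.21) missed the threshold with an adjusted p of 0.0736. A second feature of HIF1A differed by -0.84 (adjusted p = 0.114). EPAS1, which encodes HIF-2 alpha, was at -0.08, ARNT at -0.36, VHL at -0.02 and the factor-inhibiting hydroxylase HIF1AN at 0.14. The prolyl hydroxylase EGLN1, a HIF target in its own right, was at 0.32 (adjusted p = 0.454), and the transmembrane hydroxylase P4HTM at 0.64 (adjusted p = 0.132). EGLN3, another prolyl hydroxylase of the list, and ARNT2 had no named feature, so their response is not known here. Among 13 JmjC histone demethylases, which also use oxygen, 3 were higher at an unadjusted p under 0.05, against 8.92% of all features. KDM4B, at 8.92, 8.38 and 8.59 against 7.48, 7.31 and 7.16, differed by 1.31 (adjusted p = 0.0655), and KDM3A, at 13.64, 13.47 and 13.33 against 12.37, 12.55 and 12.36, by 1.06 (adjusted p = 0.0669). For KDM4B and KDM3A no HPC array reached down to the NPC range, and the third was KDM5C at 0.42.

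The promoters of AK4, ALDOC and P4HA1 are shown as genes that rose and that hold the core of the hypoxia response element. They are again the 250 bases before the RefSeq start on GRCh38.p14, along the gene's strand, with ACGTG or GCGTG on either strand in capitals. They lie at chr1:65147302-65147551 on the plus strand, at chr17:28576896-28577145 on the minus strand and at chr10:73096867-73097116 on the minus strand. CACGTG is a match on both strands.
AK4: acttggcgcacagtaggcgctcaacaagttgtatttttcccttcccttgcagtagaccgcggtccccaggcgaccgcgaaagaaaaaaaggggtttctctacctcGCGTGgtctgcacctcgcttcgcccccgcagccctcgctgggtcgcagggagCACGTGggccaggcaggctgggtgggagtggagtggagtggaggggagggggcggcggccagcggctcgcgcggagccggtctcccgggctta
ALDOC: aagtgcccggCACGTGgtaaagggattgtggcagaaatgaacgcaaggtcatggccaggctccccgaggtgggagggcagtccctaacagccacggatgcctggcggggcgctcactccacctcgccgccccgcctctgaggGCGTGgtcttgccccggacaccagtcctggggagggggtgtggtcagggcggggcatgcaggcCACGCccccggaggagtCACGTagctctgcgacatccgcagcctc
P4HA1: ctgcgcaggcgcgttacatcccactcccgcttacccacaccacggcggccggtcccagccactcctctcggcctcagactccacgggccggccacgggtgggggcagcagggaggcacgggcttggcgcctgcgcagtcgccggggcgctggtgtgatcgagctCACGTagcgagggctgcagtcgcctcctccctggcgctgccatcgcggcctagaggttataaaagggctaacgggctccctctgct
The core occurs 3 times before the start of AK4, 5 times before that of ALDOC and 1 time before that of P4HA1. It is short and common. It was in the 300-base window of 14 of 20 genes that rose and have a promoter entry (70.0%, exact 95% interval 45.7 to 88.1%), in 70 of 93 genes of the 7 core hypoxia lists (75.3%, 65.2 to 83.6%), in 60.4% of the promoters of all genes named on the array and in 48.4% of all RefSeq promoters. With ACGTG alone the share among genes that rose was 20% and that of all promoters 21.6%, while that of the core hypoxia lists was 39.8% against 25.7% of the genes named on the array. The interval of the genes that rose thus includes the share of the genes on the array with both forms of the motif.

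**Figure D3:**
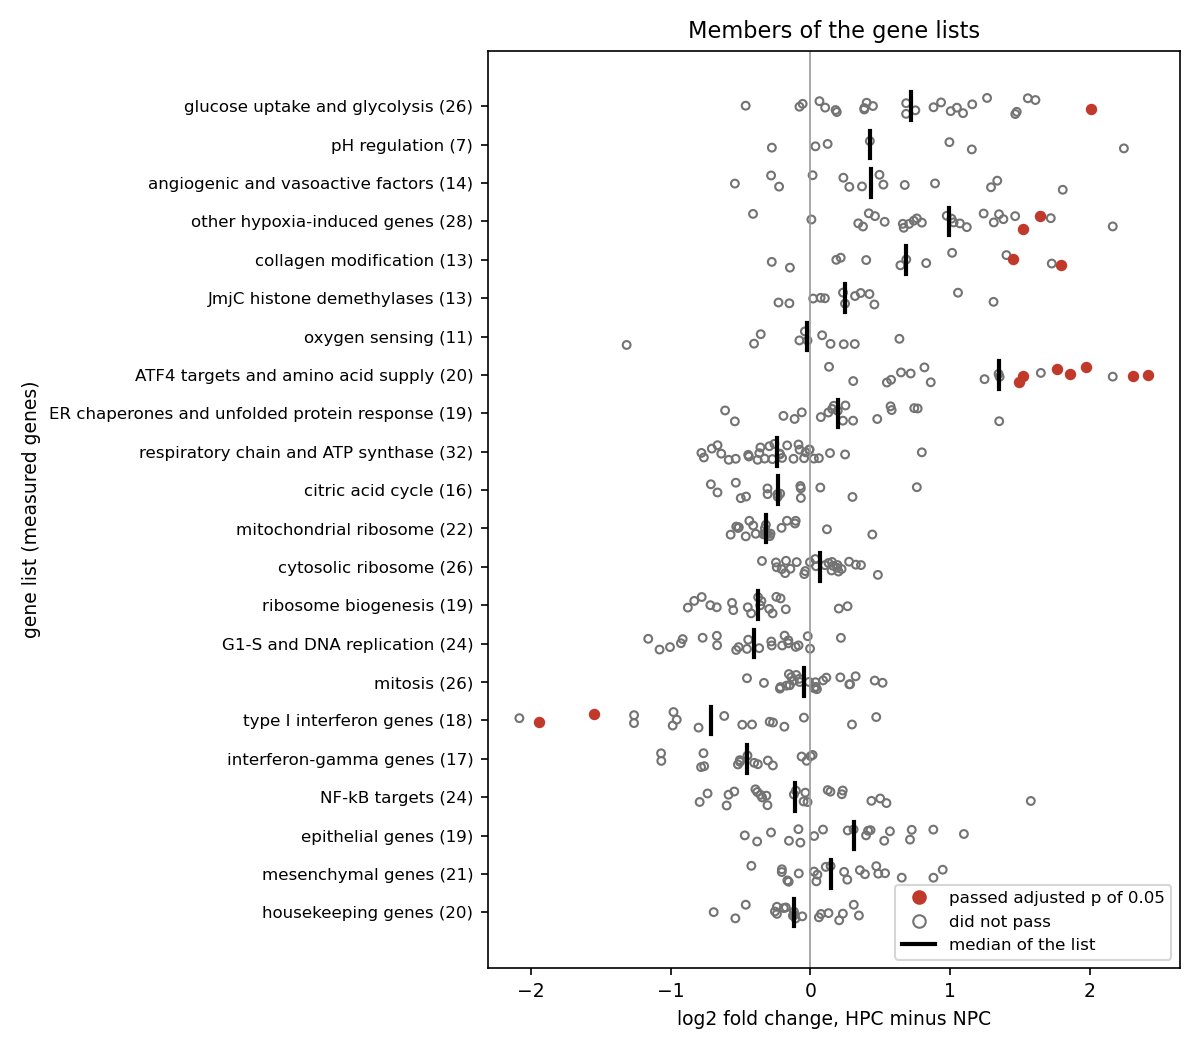
Log2 fold change, HPC minus NPC (x axis), of each measured gene of 22 lists (y axis, number of measured genes in brackets), filled where the gene passed the adjusted threshold and open where it did not, with a black bar at the median. The ATF4 list lies furthest to the right, with a median of 1.35, and the type I interferon list furthest to the left, with a median of -0.71.

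Several further genes that rose are in neither the core hypoxia lists nor the ATF4 list used here. Whether HIF or ATF4 acts on them was not tested. FYN, a Src-family kinase, had the largest change of the named genes. On 1 feature it was at 8.64, 8.23 and 8.19 in HPC and 5.66, 5.26 and 4.39 in NPC (log2 3.25, SE 0.34, adjusted p = 0.0423), and on another at 9.75, 9.60 and 9.61 against 6.48, 6.98 and 6.45 (3.02, SE 0.19, adjusted p = 0.0254). The first feature lay within the lowest 1.86% of features on every NPC array, so the size of its change is uncertain, and another feature of the gene differed by 0.59 (adjusted p = 0.228). TSC22D3, known as the glucocorticoid-induced leucine zipper GILZ, was at 10.46, 10.44 and 10.66 against 8.57, 8.81 and 8.90 and rose 3.40-fold (adjusted p = 0.0337). NGFR, the p75 neurotrophin receptor, was at 9.73, 9.68 and 9.54 against 8.01, 8.09 and 8.17 and rose by a log2 of 1.56 (adjusted p = 0.0337). Other genes with tight replicates that rose were COX6B2, a cytochrome c oxidase subunit best known from testis (1.59), the zinc-finger repressor ZNF274 (1.61), the LIM-domain protein FHL1 (1.48), the signalling regulator RGS11 (1.37), complement factor B (CFB, 1.34), the synaptic adhesion protein NLGN2 (1.33) and the guidance receptor ROBO3 (1.28). The Rab11 effector RAB11FIP4 rose by 1.64 from levels within the lowest 3.05% of features on every NPC array, so the size of its change is uncertain too.

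Genes of the type I interferon response had lower levels under hypoxia. Of 18 measured, 2 fell at the adjusted threshold, 10 were lower at an unadjusted p under 0.05, against 8.9% of all features, and 0 were higher. The median log2 fold change was -0.71, and the members' median level was 8.32 to 8.42 on the HPC arrays and 8.85 to 9.47 on the NPC arrays. OASL, a 2′-5′-oligoadenylate synthetase-like antiviral protein, was at 7.57, 7.82 and 7.92 in HPC and 9.86, 9.77 and 9.51 in NPC and fell by 1.95 on the log2 scale (SE 0.18, adjusted p = 0.0337), or 3.85-fold. IFIT3, an antiviral scaffold that binds the other IFIT proteins, was at 9.00, 9.18 and 8.88 against 10.61, 10.42 and 10.68 and fell by 1.55 (SE 0.16, adjusted p = 0.0423), or 2.93-fold. On these features of both genes the highest HPC array lay more than 1 log2 unit below the lowest NPC array. A second feature of OASL differed by -1.34 and did not pass (adjusted p = 0.146). IFIT2, which blocks translation of viral RNA, was at 9.64, 8.94 and 8.98 against 11.55, 11.27 and 10.98, with a difference of -2.08 that missed the threshold (adjusted p = 0.0506). HERC5 and OAS1 were at -1.26 each, MX1 at -0.98 and the RNA sensor IFIH1 (MDA5) at -0.96. Other members were near 0 or above it, with IRF7 at 0.47, MX2 at 0.30, OAS3 at -0.05 and RSAD2 at -0.19. Of 17 interferon-gamma genes, 6 were lower at an unadjusted p under 0.05 and 0 passed. IRF9, a transcription factor of the type I pathway, was at 8.90, 8.37 and 9.08 in HPC and 9.48, 9.50 and 9.65 in NPC, and its difference was -0.76 (adjusted p = 0.158).

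The IFIT3 promoter is shown as that of a gene that fell and whose window holds GAAA, any 2 bases and GAAA, the core of the interferon-stimulated response element. It is the 250 bases before the RefSeq start on GRCh38.p14 at chr10:89327747-89327996 on the plus strand, with the matches in capitals, both on the opposite strand, 156 to 147 and 122 to 113 bases before the start.
IFIT3: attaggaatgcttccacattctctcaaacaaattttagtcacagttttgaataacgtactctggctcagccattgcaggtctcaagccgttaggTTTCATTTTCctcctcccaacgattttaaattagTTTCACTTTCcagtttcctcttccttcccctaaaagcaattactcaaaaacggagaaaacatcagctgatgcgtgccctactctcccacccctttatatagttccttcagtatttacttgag
The motif was in the window of 8 of 12 type I interferon genes with a promoter entry (66.7%, exact 95% interval 34.9 to 90.1%), in 2.76% of the promoters of genes named on the array and in 3.65% of all RefSeq promoters. This motif and TGATGNAA were added after the expression values were seen.

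LCP1 and CCL4 were the other named genes that fell. LCP1 (L-plastin, an actin-bundling protein of leukocytes that some carcinomas also make) was at 5.37, 5.22 and 5.05 in HPC and 7.16, 7.49 and 7.22 in NPC, a fall of 2.08 on the log2 scale (SE 0.17, adjusted p = 0.0337). It was dim in both groups, within the lowest 22.6% of features on the NPC arrays and the lowest 1.20% on the HPC arrays. LCP1 is 1 of the 15 macrophage markers measured, and the others did not pass, with CD14 at -0.07, CD163 at 0.06, TYROBP at -0.09 and CD68 at -0.28. The marker with the next smallest p, ITGAM (CD11b), lay in the other direction, at 7.13, 7.08 and 7.03 in HPC and 5.90, 6.85 and 6.49 in NPC (0.66, adjusted p = 0.243, no overlap), and FCER1G was at -0.77 (adjusted p = 0.35). The summed log2 level of the 15 markers was 105.3 to 108.4 over the HPC arrays and 108.9 to 110.7 over the NPC arrays. This sum contains LCP1 itself, so it cannot be set against the fall of LCP1. Any part of the other markers in that fall was not tested. The chemokine CCL4 was at 7.56, 7.80 and 7.75 against 9.01, 9.20 and 9.10 and fell by 1.40 (adjusted p = 0.0423). Among 24 NF-kB targets 0 passed, with 4 lower and 2 higher at an unadjusted p under 0.05, against 8.9% and 8.92% of all features. CCL20 was at 9.79, 10.00 and 9.66 against 8.33, 8.52 and 7.87 (1.58, adjusted p = 0.0572), and CCL2 at 12.56, 12.27 and 12.40 against 12.90, 13.07 and 13.01 (-0.59, adjusted p = 0.14). The 2 chemokines thus differed in opposite directions, and neither passed.

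No gene of DNA replication passed the adjusted threshold. Of 24 G1-S and replication genes, 12 were lower at an unadjusted p under 0.05, against 8.9% of all features, and 0 were higher, with a median of -0.41. MCM6, a subunit of the replicative helicase, was at 9.41, 9.47 and 9.50 in HPC and 10.66, 10.66 and 10.54 in NPC (-1.16, SE 0.14, adjusted p = 0.0506). The gap between the groups was many times the range within either. MCM3 differed by -1.01 (adjusted p = 0.0741), MCM4 by -0.91 (adjusted p = 0.0747), the sliding clamp PCNA by -0.93 and GINS1 by -1.08. CDT1 (-0.02), which loads the same helicase, and CDC45 (0.22), which activates it, were near 0. Of 26 mitosis genes, CDK1 (0.52) was the 1 higher at an unadjusted p under 0.05, 0 were lower, and the median was -0.04. In the list of CDK inhibitors and p53 targets, 4 of 12 were higher, against 8.92% of all features. Among them were CDKN1A (p21), at 13.31, 13.69 and 13.52 against 12.57, 12.60 and 12.64 (0.90, adjusted p = 0.0847), and SESN2, an ATF4 target that restrains mTORC1 (1.65, adjusted p = 0.0657). Of 16 DNA repair genes, 4 were lower and 2 higher, with FANCA at -0.96 (adjusted p = 0.0844) and BRCA1 at 0.50.

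None of the nuclear genes of mitochondria and of ribosome assembly in the lists passed the adjusted threshold. The counts at an unadjusted p under 0.05 stand against 8.9% of all features lower and 8.92% higher. Of 32 genes of the respiratory chain and ATP synthase, 8 were lower and 1 higher at that level, with a median of -0.24. ATP5F1A, the alpha subunit of ATP synthase, was at 13.82, 13.75 and 13.60 in HPC and 14.40, 14.69 and 14.42 in NPC (-0.78, adjusted p = 0.1). The 1 higher gene was COX4I2, the isoform of cytochrome c oxidase subunit 4 known to be induced by hypoxia, at 0.80 (unadjusted p = 0.041). In the citric acid cycle 5 of 16 were lower, led by DLAT of the pyruvate dehydrogenase complex (-0.71), and IDH2, which can run toward citrate, was at 13.39, 13.57 and 13.50 against 12.75, 12.56 and 12.86 (0.76, adjusted p = 0.0991). Of 22 mitochondrial ribosomal proteins 5 were lower and 0 higher (median -0.32). Of 19 ribosome biogenesis genes 7 were lower and 0 higher (median -0.37), with NOP2 at -0.78, NOP16 at -0.83 and the RNA polymerase I subunit POLR1A at -0.88. The 26 cytosolic ribosomal proteins had 0 genes at an unadjusted p under 0.05 in either direction and a median of 0.07. Housekeeping genes had a median of -0.12, with 3 of 20 lower (VCP, PSMB2 and PPIA).

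The remaining lists held no gene that passed. Their counts at an unadjusted p under 0.05 stand against 8.92% of all features higher and 8.9% lower, and those of NRF2 targets and metallothioneins are near these shares. Of 19 endoplasmic reticulum chaperones and unfolded protein response genes, 6 were higher and 2 lower. HERPUD1, which acts in the removal of misfolded proteins, was at 11.68, 11.87 and 11.70 against 10.25, 10.35 and 10.60 (1.35, adjusted p = 0.0506). The chaperone HSPA5 (BiP) was at 0.57, HSP90B1 at 0.17 and PDIA4 at 0.07. Of 19 epithelial genes, 6 were higher and 1 lower, with E-cadherin (CDH1) at 9.24, 8.75 and 9.07 against 7.57, 8.32 and 7.88 (1.10, adjusted p = 0.108) and MUC1 at 0.88. Of 21 mesenchymal genes, 4 were higher and 1 lower, with the repressor of E-cadherin SNAI1 at 10.54, 10.69 and 10.51 against 9.67, 9.71 and 9.53 (0.95, adjusted p = 0.0722), and with ZEB1 at -0.08 and VIM at 0.04. CDH1 and SNAI1 were thus both above their NPC range. Cholesterol synthesis had 1 of 21 higher. Fatty acid genes had 4 of 11 higher and 1 lower, with ACSL3 at 1.12 and ELOVL6 at -0.66. Of 12 circadian genes 5 were higher, with BMAL1 at 0.88 and DBP at 0.82, and 1 was lower. Of 16 NRF2 targets 2 were higher and 1 lower, and of 8 metallothioneins 1 was lower (MT2A, -0.47). Markers of lymphocytes, endothelium, fibroblasts and acinar cells each had 0 or 1 gene at an unadjusted p under 0.05 in each direction.

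The same contrast in cells with TAMs (HPM vs NPM) shares no arrays with that of the cells alone. The 2 contrasts are still not independent, since same-numbered arrays of an oxygen level deviated alike, with residual correlations of 0.27 to 0.54. The contrast with TAMs had more calls, with 1604 features that rose (4.65%) and 1998 that fell (5.79%). Of the 54 features called in the cells alone, 47 were also called there with the same sign, 52 had the same sign and 2 had the opposite sign. DDIT3 rose in both, by 2.42 alone and 2.75 with TAMs, and so did TRIB3 (1.86 and 1.48), P4HA1 (1.94 and 1.70) and TSC22D3 (1.76 and 2.17). OASL fell by 1.95 alone and by 2.79 with TAMs, and IFIT3 by 1.55 and by 2.15. Genes called in the cells alone and not in the cells with TAMs were CFB (1.34 and 0.01), ZNF274 (1.61 and 0.51), RGS11 (1.37 and 0.81), CCL4 (-1.40 and 0.14) and LCP1 (-2.08 and 0.84), and of these LCP1 and CFB (adjusted p = 0.0146 and 0.0468) passed the test of the difference given next. With the replicate number as a block inside each oxygen level CFB had an adjusted p of 0.0712, and it passed in 1 of 12 fits that left out an array. List medians alone and with TAMs were 1.35 and 1.02 for ATF4 targets, 0.72 and 0.67 for glycolysis, 0.99 and 1.41 for other hypoxia-induced genes, -0.71 and -0.75 for type I interferon genes and -0.41 and 0.17 for DNA replication. These differences between medians were not tested. Gene by gene, 6 of 28 other hypoxia-induced genes and 1 of 20 ATF4 targets passed the test of the difference given next. For glycolysis, type I interferon and DNA replication genes it was 0, against 0.452% of all features.

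The difference between the effects, (HPM minus NPM) minus (HPC minus NPC), was tested as an interaction over the 12 arrays and passed for 156 features, which is 0.452% of all, 60 with a higher and 96 with a lower value in the co-cultured cells. With the replicate number as a block inside each oxygen level it passed for 31. Of the 54 features called in the cells alone, 3 were among the 156. These 3 were selected on their change in the cells alone, which is itself part of the interaction. CHI3L1, a secreted glycoprotein of inflammation, had the smallest p among named genes. It was at 8.13, 7.74 and 8.46 in HPC and 9.06, 9.62 and 9.18 in NPC, a difference of -1.18 in the cells alone (adjusted p = 0.101). In co-culture the hypoxia effect was 3.27, so that the interaction was 4.45 (SE 0.32, adjusted p = 0.000587, and 0.00537 with the block). The mean level of CHI3L1 was 8.11 in both HPC and HPM, 9.29 in NPC and 4.84 in NPM. Its hypoxic levels were thus alike with and without TAMs, and normoxic co-culture was the group with the low level. The NPM arrays were at 4.67, 5.10 and 4.77, which is dim on this scale, so the size of the interaction is uncertain. LCP1 had an interaction of 2.92 (adjusted p = 0.0146, and 0.0471 with the block). Its mean level was 4.90 in HPM and 4.05 in NPM, below the 5.21 of HPC and the 7.29 of NPC. LCP1 was thus dim with TAMs at either oxygen level, with little room for a fall, and the size of its interaction is uncertain. DDIT4 rose by 1.52 in the cells alone and by 2.99 in co-culture, an interaction of 1.47 (adjusted p = 0.029, and 0.0552 with the block). IGFBP3 (1.29 alone and -0.51 in co-culture), STC2 (0.68 and -0.85) and HMOX1 (0.74 and -0.92), the heme oxygenase, had negative interactions. The ATF4 targets DDIT3, PCK2, TRIB3, ATF3 and CHAC1 did not pass this test, with interactions between -0.77 and 0.33, and -0.89 on the second feature of PCK2.

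**Figure D4:**
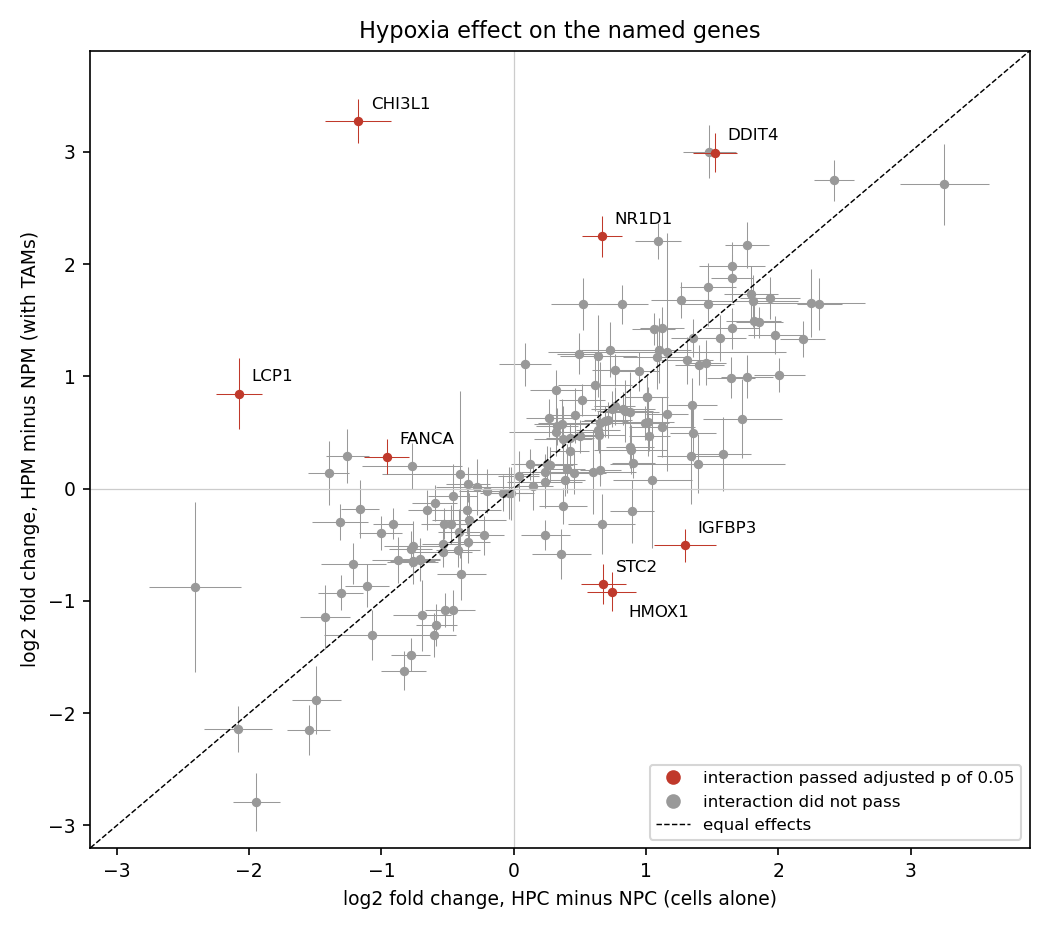
Log2 fold change under hypoxia of the 157 features of named genes in cells alone (x axis, HPC minus NPC) and in cells with TAMs (y axis, HPM minus NPM), with bars of 1 SE and a dashed line of equal effects. The 8 red points passed the interaction test, with CHI3L1 at -1.18 and 3.27 furthest from the line.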

How the data were processed

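Total RNA of PANC-1 cells was labelled with Cy3 and hybridised on NimbleGen arrays, 1 sample per array. Per the labels and the methods, the authors quantile-normalized the scanned signal and summarised probes by RMA in NimbleScan, and used GeneSpring afterwards. The deposited values are linear intensity per feature, with no background flags or probe-level values used here. Precision is limited by the number of arrays, and no genome build of the array is named in the labels or the methods.

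Intensities were log2-transformed with no filter and analysed in R 4.3.3 with limma 3.58.1 (lmFit and eBayes, default settings, two-sided), HPC vs NPC over 6 arrays, HPM vs NPM over 6 and the interaction over 12. Benjamini-Hochberg adjustment covered the 34487 features. SE is the moderated standard error. The labels describe the triplicates as separate samples of a group, and the design text calls them independent experiments. The fit of HPC vs NPC without a block was tested on simulated arrays with known changes, with noise drawn independently for each array.

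Gene names came from GEO's platform annotation (14133 features) and from RefSeq accessions (542), and 19812 features stayed unnamed. Where a gene had several features, its lists used the one with the highest mean over the 12 arrays. The members and the 35 gene lists were chosen with earlier results of these data known, so counts in lists stand beside those of all features and no set test was run. Named genes were those with the largest changes (12 in each direction, from features that passed without overlap, made up by smallest p where fewer passed), all measured oxygen-sensing genes, up to 8 genes with the smallest p of each other core hypoxia list, up to 3 of each other list, and the gene with the smallest interaction p. Further genes of the lists and of those that passed are given with their values and were chosen after these were seen.

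Within an oxygen level same-numbered arrays deviated alike, with residual correlations of 0.28 to 0.52 between NPC and NPM and 0.27 to 0.54 between HPC and HPM, so the interaction is given with and without that block. Promoter windows of 300 bases came from RefSeq on GRCh38.p14 and were searched in Python 3.11.15, and 20 of the 25 genes that rose and 2 of the 4 that fell had an entry.

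Alternatives were repeated quantile normalization, median centring, a filter at the 25th percentile of mean intensity, log2(intensity + 16), all 12 arrays in the fit, trend and robust settings, a replicate block, the methods' t-test, leaving out each array, the mean of a gene's features and the motif ACGTG alone.

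Results for a few genes are not reported here.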

Additional observations from a re-analysis of the deposited data

Results flagged for a closer look

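A different effect of hypoxia in co-cultured cells than in cells alone was tested as an interaction and passed for 156 features, with 31 left when same-numbered arrays of an oxygen level were a block. Values are the hypoxia effect in co-cultured cells minus that in cells alone, on the log2 scale. CHI3L1 had 4.45 and passed in 12 of 12 fits that left out an array. Its mean level was 8.11 in both HPC and HPM, 9.29 in NPC and 4.84 in NPM. The NPM level is dim, so the size of this value is uncertain. LCP1 had 2.92 and passed in 9 of 12, and HMOX1 had -1.66 and passed in 4. LCP1 was dim in HPC, HPM and NPM (means 5.21, 4.90 and 4.05), so the size of its value is uncertain too. NR1D1, a circadian repressor, had 1.58 and passed in 6. STC2 had -1.53, IGFBP3 -1.80 and DDIT4 1.47, and these passed in 2, 2 and 1 of the 12 fits. FANCA, of the Fanconi anemia DNA repair pathway, had 1.25 and passed in 0 of 12. A second feature of FANCA did not pass the interaction test (adjusted p = 0.808). With the block, CHI3L1, LCP1 and HMOX1 passed (adjusted p = 0.00537, 0.0471 and 0.0472), while the adjusted p of NR1D1, STC2, DDIT4, IGFBP3 and FANCA was 0.0567, 0.0552, 0.0552, 0.065 and 0.0689.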

How the results depend on the processing

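None of the 20 named features called in HPC vs NPC changed direction under an alternative. For most alternatives this was fixed beforehand. The groups do not overlap on these features, so leaving out an array could not change the sign. The block, trend and t-test fits keep the same difference of means. Among the 157 named features, 6 that were called in neither fit changed sign in 14 of 2494 values, and the filter kept 139 of the 157. The number of calls depended strongly on the setting. Against 54 features passing in HPC vs NPC, there were 135 after repeated quantile normalization, 126 after median centring, 131 with log2(intensity + 16), 893 without features under the 25th percentile, 1639 with trend and robust settings, 1452 when the fit took in all 12 arrays, 14 with the methods' t-test after Benjamini-Hochberg adjustment and 5920 with it unadjusted. With each array left out in turn the count was 0 each time in limma, where 4228 to 6836 features had an unadjusted p under 0.05. It was also 0 without both arrays numbered 3, an alternative added after seeing the data. The list genes passing were 14, and 28 after quantile normalization, 26 after centring, 27 with log2(intensity + 16), 74 with the filter, 99 with all 12 arrays, 109 with trend and robust settings, 2 with the methods' t-test, 41 with the mean of a gene's features and 0 without both arrays numbered 3 or any single array. The interaction passed for 156 features, and for 311 with the filter, 363 with trend and robust settings and 23 to 73 with an array left out. Medians of the lists stayed within 1 SD of the arrays' spread in 570 of 595 comparisons. The share of genes that rose with a hypoxia response element core was 70.0%, and 20% with ACGTG alone.

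The residual correlations of same-numbered HPC and NPC arrays were 0.24, 0.025 and 0.38 for pairs 1, 2 and 3. Pair 2 lay under the limit of 0.1 and pairs 1 and 3 above it, and 4 of 6 arrays correlated best with their own number. Whether the numbers pair the arrays is thus unsettled, and the counts are given with and without the block. With the replicate block 0 features and 0 list genes passed. With the replicate block and trend and robust settings, added after seeing the data, 2281 features and 125 list genes passed. For the interaction the replicate block over all arrays gave 252 features and the block within each oxygen level 31.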
